A study of Mus musculus with 2 samples.

Results

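The miR-17-92 and miR-106b-25 clusters are 2 groups of microRNA genes that arose from a shared ancestor, and their 9 genes were measured here in mouse calf muscle. The 9 genes were taken by symbol from the GENCODE M21 annotation and matched by Ensembl gene identifier, out of 2202 gene rows in each table. Mir17, Mir18, Mir19a, Mir20a, Mir19b-1 and Mir92-1 form the miR-17-92 cluster, and Mir106b, Mir93 and Mir25 form the miR-106b-25 cluster. The tissue was gastrocnemius of male B6CASTF1/J mice aged 2 months, the first-generation cross of the inbred C57BL/6J and the wild-derived CAST/EiJ. There was 1 library from each of 2 biological replicates, in 1 group for which the labels name no treatment, so the data give levels and the distance between the libraries but no contrast of conditions. The labels number the males differently and give them the same donor entry, and any p-value below measures these 2 libraries against counting error only. Inserts under 30 nt were sequenced, so a read spans a mature microRNA, the strand of about that length that is cut from a hairpin precursor.

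A mature microRNA finds messenger RNAs mainly through its seed, bases 2 to 8 from its 5′ end, and lowers their translation and stability. The miR-17-92 cluster is transcribed as 1 long RNA under MYC and E2F factors and is known for driving proliferation and survival of progenitor, blood and tumour cells. The miR-106b-25 cluster is cut from an intron of Mcm7, which encodes a subunit of the helicase that opens DNA for replication. Both are usually described as more active in dividing cells than in resting, differentiated ones.

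The mature sequences show which genes can stand in for each other and which reads could be assigned. They are given 5′ to 3′ from RefSeq (GRCm38.p6), with the seed in capitals. The first 4 share the seed AAAGUGC, the next has AAGGUGC, the next 2 have GUGCAAA and the last 2 have AUUGCAC.
miR-17-5p of Mir17: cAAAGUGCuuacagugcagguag
miR-20a-5p of Mir20a: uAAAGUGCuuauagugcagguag
miR-93-5p of Mir93: cAAAGUGCuguucgugcagguag
miR-106b-5p of Mir106b: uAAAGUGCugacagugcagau
miR-18a-5p of Mir18: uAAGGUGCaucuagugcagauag
miR-19a-3p of Mir19a: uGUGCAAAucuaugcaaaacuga
miR-19b-3p of Mir19b-1: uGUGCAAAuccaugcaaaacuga
miR-92a-3p of Mir92-1: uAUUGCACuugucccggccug
miR-25-3p of Mir25: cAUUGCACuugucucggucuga

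Mir17 and Mir20a differ at 2 positions counted from the 5′ end, C1U and C12U, both outside the seed. Mir19a differs from Mir19b-1 at 1 position, U11C, also outside the seed. The miR-106a-363 cluster on chromosome X holds near copies, which are shown because they decide which reads are unique.
miR-106a-5p of Mir106a: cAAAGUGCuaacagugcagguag
miR-20b-5p of Mir20b: cAAAGUGCucauagugcagguag
miR-18b-5p of Mir18b: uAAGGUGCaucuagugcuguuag

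Mir106a differs from Mir17 by the single change U10A, Mir20b from Mir20a by U1C and U10C, and Mir18b from Mir18 by A18U and A20U. The mature sequences of Mir19b-1 and Mir92-1 are identical to those of Mir19b-2 and Mir92-2 on chromosome X. Around them the hairpins of Mir92-1 and Mir92-2 share a run of 22 bases, the 21 of miR-92a-3p and 1 before it, with 0 after it. The hairpins of Mir19b-1 and Mir19b-2 share a run of 25 bases, the 23 of miR-19b-3p and 2 before it. A read that lies inside such a run matches 2 genes. Reads that matched several places were 74.4% of all reads in replicate 2 and 75.2% in replicate 1, and they are in no gene's count. The counts of Mir19b-1 and Mir92-1 therefore leave out such reads to an unknown degree and are read as uncertain, as are the sums they enter. The other 7 mature sequences match no second microRNA hairpin in full, and the nearest differs by 1 base for Mir17 and Mir19a, 2 for Mir18 and Mir20a and 3 for Mir106b, Mir93 and Mir25. Copies outside annotated hairpins and transcripts were not analysed here.

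In the mm10 assembly the miR-17-92 genes lie within 836 bp on the plus strand of chromosome 14, from the start of Mir17 (ENSMUSG00000065508.1) at 115043671 to the end of Mir92-1 (ENSMUSG00000076062.1) at 115044506. All 6 fall in an exon of the long noncoding gene Mir17hg (115042879 to 115046727, plus strand). The miR-106b-25 genes lie within 498 bp on the minus strand of chromosome 5, in the order Mir106b (ENSMUSG00000065514.1, 138165737 to 138165818), Mir93 (ENSMUSG00000065527.1, 138165523 to 138165610) and Mir25 (ENSMUSG00000065394.1, 138165321 to 138165404). They sit in an intron of Mcm7 (138164583 to 138172422, minus strand) in 2 annotated transcripts, and the annotation holds 1 further transcript in which Mir93 and Mir25 are exonic. No member had a count on the strand opposite to its own.

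**Figure D1:**
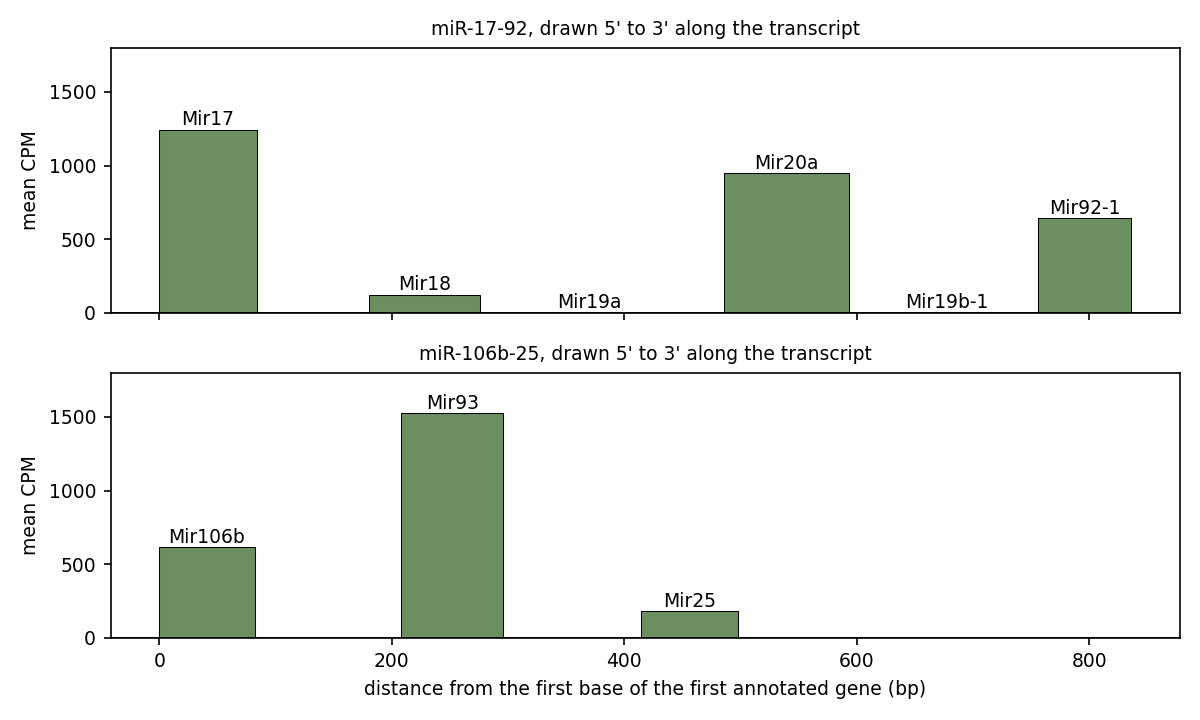
Mean level of each gene over the 2 libraries (CPM, vertical axis) along its cluster, with the distance from the first annotated base in bp on the horizontal axis. Each bar is as wide as the annotated gene. Mir17, Mir20a and Mir92-1 stand above Mir18, with Mir19a and Mir19b-1 too low to see, and Mir93 is the highest gene of both clusters.

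Replicate 2 held 2272132 counts assigned to genes and replicate 1 held 638779, and levels are counts per 1000000 of that total (CPM). For a gene with 0 counts whose reads match 1 place, the limit is 1.32 CPM in the deeper replicate 2 and 4.70 in replicate 1. Intervals and limits cover counting error only. The tissue label was checked against 9 muscle microRNA genes, all of which reached 2 CPM in both libraries. Their sum was 52158 CPM in replicate 2 and 22884 in replicate 1, of which Mir206 gave 48078 and 20325 CPM. Markers of other cell types present in muscle were also found, with Mir126a of endothelium at 129798 CPM in replicate 2 and 81286 CPM in replicate 1. In whole tissue, fewer cells of a type and less RNA per cell cannot be told apart.

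Both clusters were present at moderate levels in gastrocnemius, with 7 of the 9 genes at 2 CPM or more in both libraries, the level called detected. Together they held 5211 CPM in replicate 2 and 5352 CPM in replicate 1, a mean of 5281 ± 100 CPM (SD, n = 2), or 0.528% of assigned counts. The miR-17-92 genes summed to 2968 CPM in replicate 2 and 2953 in replicate 1, and the miR-106b-25 genes to 2243 and 2400 CPM in the same order. The miR-17-92 sum was thus 1.32-fold the miR-106b-25 sum in replicate 2 (exact 95% interval 1.28 to 1.37) and 1.23-fold in replicate 1 (1.15 to 1.32), a mean of 1.28 ± 0.0657 (SD, n = 2). That lead rested on the gene Mir92-1, whose count is uncertain, since shared reads are left out to an unknown degree. The direction of any error in the lead was not tested. Without Mir92-1, a choice made after its values were seen, the ratio averaged 0.997. The miR-17-92 sum was then 2133 CPM against 2243 in replicate 2 and 2503 against 2400 in replicate 1.

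The genes with the seed AAAGUGC gave most of the signal. Counts are per gene and hold both arms of a hairpin, so sums by seed are not counts of the seed-bearing strand alone. Mir17, Mir20a, Mir93 and Mir106b, a family known for repressing the cell cycle inhibitor Cdkn1a, summed to 4089 CPM in replicate 2 and 4574 in replicate 1, on average 82.0% of the counts of the 9 genes. Mir93 had 1520 CPM in replicate 2 (exact 95% interval 1469 to 1571) and 1526 CPM in replicate 1 (1432 to 1625), the closest pair of values among the 7 detected members. Mir17, the first hairpin of its cluster, had 1125 CPM in replicate 2 (1082 to 1169) and 1360 CPM in replicate 1 (1272 to 1454). Mir93 was above Mir17 in both libraries, by 1.35-fold in replicate 2 (1.28 to 1.42) and 1.12-fold in replicate 1 (1.02 to 1.23).

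Mir20a, close to Mir17 in sequence, had 913 CPM in replicate 2 (874 to 953) and 986 CPM in replicate 1 (911 to 1066), below Mir17 in both libraries. Mir106b had 531 CPM in replicate 2 (502 to 562) and 701 CPM in replicate 1 (638 to 769). It was the lowest of the 4 in each library.

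The seed AUUGCAC was carried by Mir92-1 and Mir25, of which miR-92a is known for restraining angiogenesis and miR-25 for repressing the cell death gene Bcl2l11. Mir92-1 had 835 CPM in replicate 2 (798 to 873) and 449 CPM in replicate 1 (399 to 504), the widest spread of the 7 detected members in CPM. Mir25, the last hairpin of its cluster, had 192 CPM in replicate 2 (174 to 211) and 172 CPM in replicate 1 (142 to 208). The intervals of Mir25 overlapped, while those of Mir92-1 did not. Mir18, alone among the members with the seed AAGGUGC, had 91.5 CPM in replicate 2 (79.5 to 105) and 153 CPM in replicate 1 (125 to 187).

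The miR-19 genes were nearly empty although they lie between well counted neighbours. Mir19a had 5 counts in replicate 2 (2.20 CPM, 0.715 to 5.14) and 0 counts in replicate 1, where a level of up to 4.70 CPM is possible. Mir19b-1 had 2 counts in each library, which is 0.880 CPM in replicate 2 (0.107 to 3.18) and 3.13 in replicate 1 (0.379 to 11.3). For Mir19b-1 the sequence shared with Mir19b-2 limits what could be counted. The mature sequence of Mir19a is found in full in no other annotated hairpin, and its nearest neighbours in sequence, the miR-19b genes, differ by 1 base. How many mismatches were allowed in matching is not given in the sources used here, and whether reads of Mir19a were left out was not tested.

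**Figure D2:**
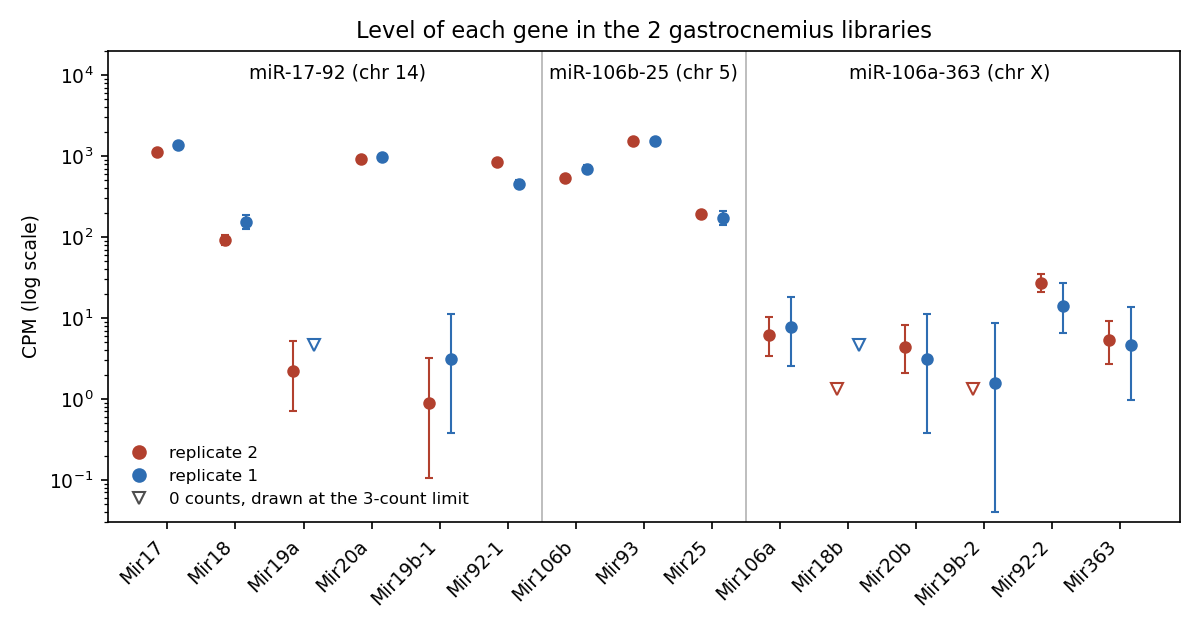
CPM on a log axis for the 9 genes and for the 6 genes of the X-linked paralog cluster, with replicate 2 to the left of replicate 1. Bars are exact 95% intervals of counting error, and open triangles mark genes with 0 counts, drawn at the limit of 3 counts (1.32 CPM in replicate 2, 4.70 in replicate 1). The X-linked genes all lie below 30 CPM.

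Ordered by mean level, the genes ran Mir93 (1523 ± 4.69 CPM, SD, n = 2), Mir17 (1243 ± 167), Mir20a (950 ± 51.6), Mir92-1 (642 ± 273), Mir106b (616 ± 120), Mir25 (182 ± 13.9), Mir18 (122 ± 43.8), Mir19b-1 (2.01 ± 1.59) and Mir19a (1.10 ± 1.56). Most steps in that order held in both libraries. The step from Mir92-1 to Mir106b did not, since Mir92-1 was 1.57-fold Mir106b in replicate 2 (1.46 to 1.69) and 0.641-fold in replicate 1 (0.550 to 0.745). Mir20a and Mir92-1 were in the same order in both libraries, but their means lay closer than the sum of their SDs. Mir25 was 2.10-fold Mir18 in replicate 2 (1.77 to 2.48) and 1.12-fold in replicate 1 (0.847 to 1.49), where the step was within counting error. Mir19b-1 and Mir19a were not told apart. Dividing by the length of the mature sequence, 21 to 23 bases, gave the same order.

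Among the 303 detected genes the members took places from the 47th to the 135th by mean CPM. Mir93 stood at rank 47, Mir17 at 55, Mir20a at 61, Mir92-1 at 73, Mir106b at 75, Mir25 at 117 and Mir18 at 135. The genes closest to Mir93 in level, by Euclidean distance of log2(CPM + 1) over the 2 libraries, were Mirlet7e (1494 ± 21.1 CPM, distance 0.0422), Mir98 (1623 ± 41.7, 0.136) and Mir16-1 (1386 ± 104, 0.226). Those closest to Mir17 were Mir27a (1256 ± 70.8 CPM, distance 0.116), Mir101a (1266 ± 428, 0.304) and Mir15a (1443 ± 309, 0.313). With 2 libraries this measure reflects level more than pattern.

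**Figure D3:**
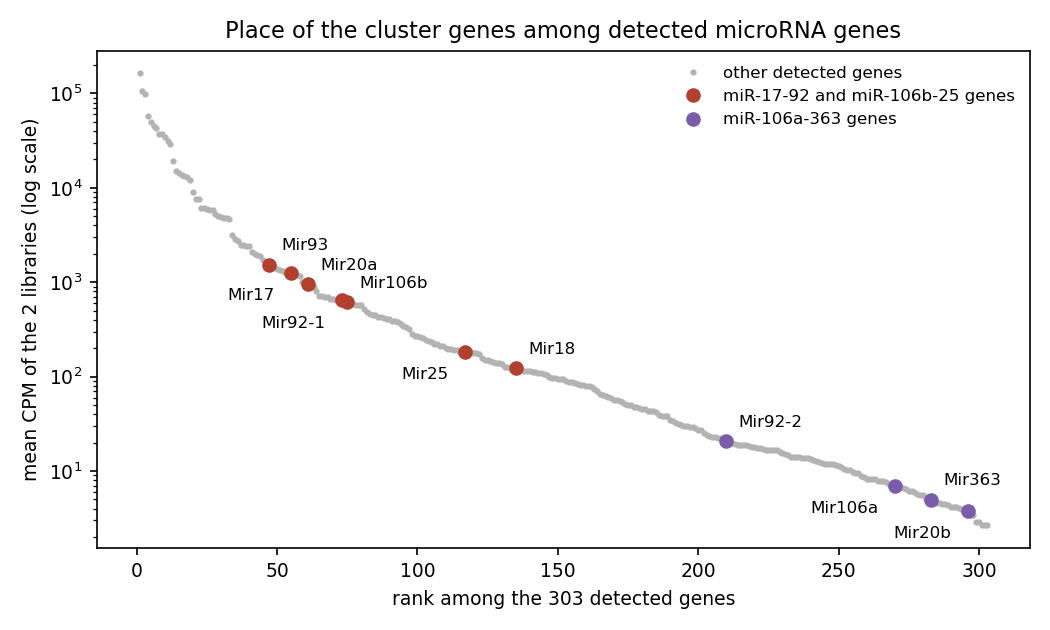
Mean CPM on a log axis against rank for the 303 genes at 2 CPM or more in both libraries. The 7 detected cluster genes fall between rank 47 (Mir93) and rank 135 (Mir18), and the 4 detected X-linked paralogs between rank 210 (Mir92-2) and rank 296 (Mir20b).

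The 2 libraries differed in how counts were spread within miR-17-92 while its sum stayed level. The sum was 1.01-fold in replicate 2 relative to replicate 1 (exact 95% interval 0.955 to 1.06), but Mir92-1 gave 28.1% of the cluster's counts in replicate 2 (27.1 to 29.2%) and 15.2% in replicate 1 (13.6 to 16.9%). Mir17 gave 37.9% in replicate 2 (36.7 to 39.1%) and 46.1% in replicate 1 (43.8 to 48.4%). Mir20a gave 30.8% in replicate 2 and 33.4% in replicate 1, and Mir18 gave 3.08% and 5.20% in the same order. Shares within a cluster depend on each other, so the uncertain count of Mir92-1 moves those of the other genes. Free of Mir92-1, the ratio of Mir20a to Mir17 was 0.812 in replicate 2 (0.766 to 0.861) and 0.725 in replicate 1 (0.653 to 0.804). These intervals overlapped. Without Mir92-1, left out after its values were seen, the other 5 genes summed to 2133 CPM in replicate 2 and 2503 in replicate 1.

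Within miR-106b-25, whose sum was 0.935-fold in replicate 2 relative to replicate 1 (0.883 to 0.990), the shares moved less. Mir93 gave 67.8% of the cluster's counts in replicate 2 (66.5 to 69.0%) and 63.6% in replicate 1 (61.1 to 66.0%). Mir106b gave 23.7% in replicate 2 (22.5 to 24.9%) and 29.2% in replicate 1 (27.0 to 31.6%). Mir25 gave 8.56% and 7.18% in the same order, with overlapping intervals.

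**Figure D4:**
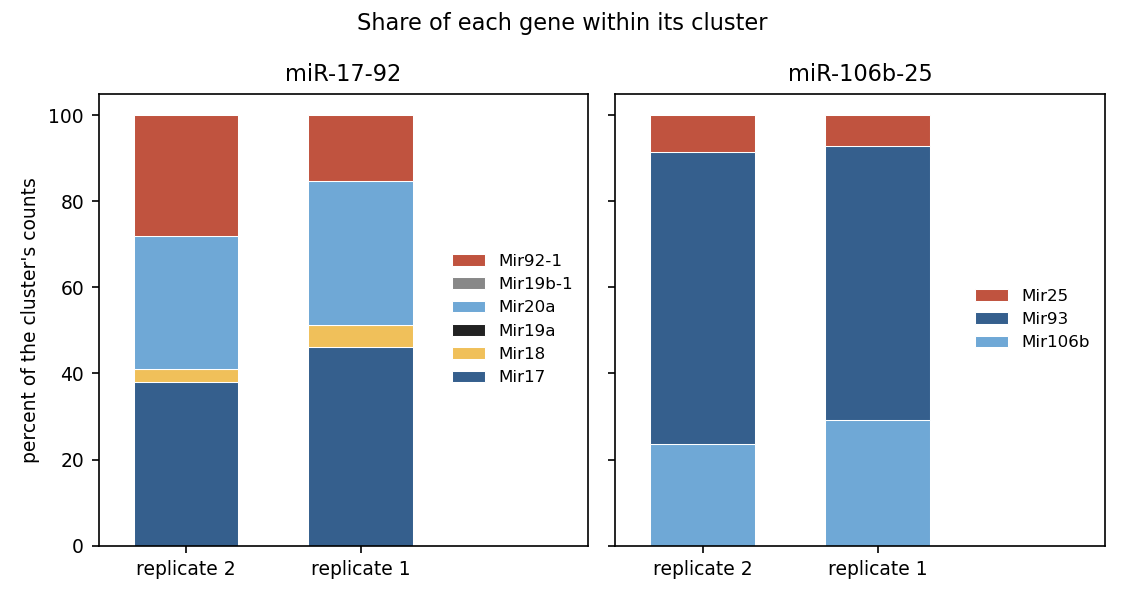
Percent of each cluster's counts given by each gene, in replicate 2 and replicate 1. The share of Mir92-1 was 28.1% in replicate 2 and 15.2% in replicate 1, and the bands of Mir19a and Mir19b-1 are too thin to see.

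Gene by gene, Mir92-1 rose in replicate 2 relative to replicate 1 and Mir17, Mir18 and Mir106b fell. The test set the counts of each gene in both libraries against the library totals, two-sided and exact (conditional binomial). Mir92-1 was 1.86-fold (95% interval 1.64 to 2.11, Benjamini-Hochberg adjusted p = 9.02e-25, exact binomial test). Mir17 was 0.827-fold (0.765 to 0.894, adjusted p = 9.03e-06, exact binomial test), Mir106b 0.757-fold (0.679 to 0.846, adjusted p = 4.86e-06) and Mir18 0.597-fold (0.467 to 0.767, adjusted p = 0.000182). Mir17 and Mir92-1, the first and the last hairpin of 1 transcript, thus lay on opposite sides. The value of Mir92-1 leaves out reads shared with Mir92-2. Whether the part left out differed between the libraries was not tested.

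The other 3 tested members did not pass. Mir93 was 0.996-fold (0.927 to 1.07, adjusted p = 0.966, exact binomial test) and Mir25 was 1.11-fold (0.902 to 1.39, adjusted p = 0.522). Mir20a was 0.926-fold (0.847 to 1.01, adjusted p = 0.186), and it passed as lower when totals were scaled by TMM (adjusted p = 0.0265), by DESeq2 size factors (0.0491) or without Mir378a, the highest gene of all (0.0112). Mir19a and Mir19b-1 had too few counts to be tested.

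The members' count has to be read against all genes. Of 7 tested members 4 passed, while 40.5% of the 311 tested genes passed. The 1 member higher in replicate 2 compares with 23.2% of all tested genes, and the 3 lower members with 17.4%. With TMM scaling the split over all genes was 57 higher and 64 lower, against 72 and 54 with plain totals. The members' median log2 ratio was -0.11 and that of all tested genes 0.04. When the spread between the libraries was counted as noise, in the exact test of edgeR with a common dispersion, 0 of the 7 members passed, against 0.643% of all tested genes, and 0 had an unadjusted p under 0.05, against 6.43% of all tested genes. That test sets 1 library against 1 with the noise taken from the same pair, so it compares each member with the average distance over genes and says nothing of the spread between mice.

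**Figure D5:**
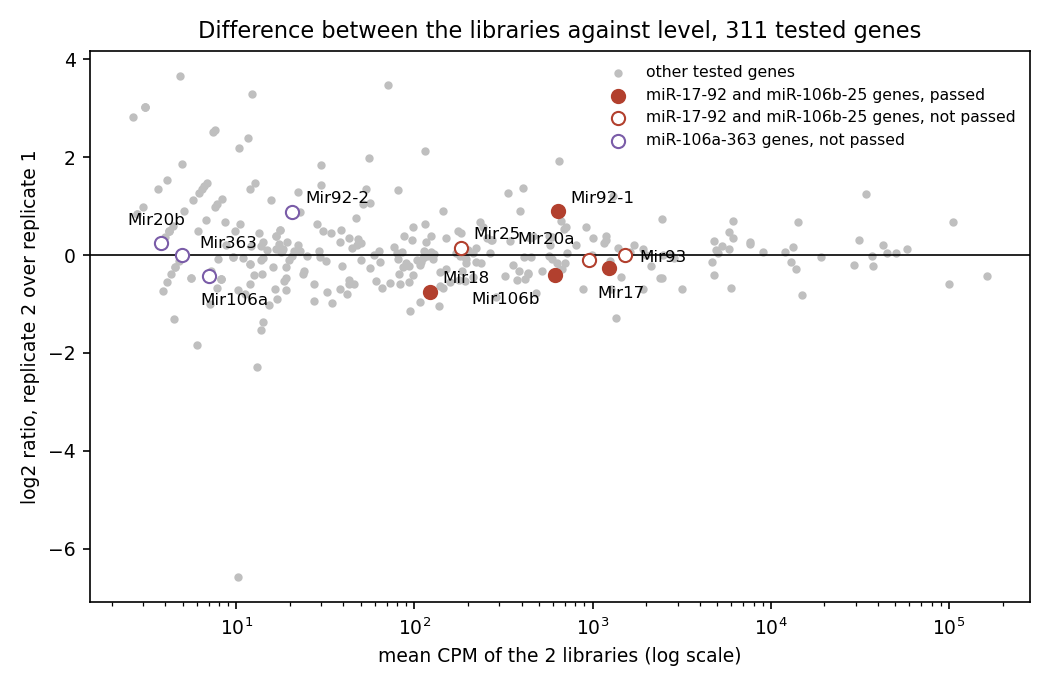
Log2 ratio of replicate 2 over replicate 1 against mean CPM (log axis) for the 311 genes with at least 10 counts over both libraries. Filled points passed the exact binomial test at an adjusted p of 0.05 and open ones did not, and other tested genes are grey whether or not they passed. Mir92-1 (log2 ratio 0.89) lies above the zero line, and Mir17, Mir106b and Mir18 (-0.27, -0.40 and -0.75) lie below it, within the cloud of other genes.

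Marker lists of other cell types moved between the libraries as well. The 2 erythroid genes summed to 4688 CPM in replicate 2 and 6176 in replicate 1, and both were lower by the same test. The 4 leukocyte genes summed to 2889 and 2542 CPM in the same order, with 2 higher, 1 lower and 1 not passing. The 2 smooth muscle genes summed to 81451 CPM in replicate 2 and 123068 in replicate 1, both lower, while Mir126a of endothelium was 1.60-fold (1.58 to 1.61). Of the 9 muscle genes 4 passed as higher and none as lower. Mir1a-1, Mir133a-1, Mir133a-2 and Mir133b, all with few counts, lay below 1 without passing (0.781, 0.787, 0.515 and 0.542-fold). Over all tested genes 23.2% passed as higher and 17.4% as lower. None of these lists was at 0 in either library. Their part in the differences of the cluster genes was not tested.

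The counts of the X-linked miR-106a-363 cluster were low, and 4 of its 6 genes reached the level called detected. Its 6 genes summed to 43.1 CPM in replicate 2 and 31.3 in replicate 1, and the miR-17-92 mean was 79.5-fold its mean of 37.2 ± 8.36 CPM (SD, n = 2). Mir92-2, with the same mature sequence as Mir92-1, led with 27.3 CPM in replicate 2 (20.9 to 35.0) and 14.1 CPM in replicate 1 (6.44 to 26.7). Mir106a had 6.16 CPM in replicate 2 and 7.83 CPM in replicate 1, Mir363 had 5.28 and 4.70 CPM and Mir20b had 4.40 and 3.13 CPM in the same order. Mir18b had 0 counts in both libraries and Mir19b-2 had 0 in replicate 2 and 1 in replicate 1. None of the 4 tested genes of this cluster passed. The counts of Mir92-2 and Mir19b-2 leave out reads shared with Mir92-1 and Mir19b-1.

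Other genes carrying a seed of the members added little. Of 4 such genes outside the 3 clusters, all with the seed AUUGCAC except Mir6383, Mir32 had 21.1 CPM in replicate 2 and 14.1 CPM in replicate 1, and Mir92b had 7.48 and 4.70 CPM in the same order. Mir367, known from embryonic stem cells, and Mir6383 had 0 counts in both libraries. Over all genes with the seed AUUGCAC the sum was 1088 CPM in replicate 2 and 659 CPM in replicate 1, of which Mir92-1 gave most.

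As a counterpart, 10 genes of microRNAs known for holding back the cell cycle were read in the same libraries. They summed to 12555 CPM in replicate 2 and 11635 in replicate 1, and 8 of the 10 were detected. Mir195a led with 8170 CPM in replicate 2 and 7031 CPM in replicate 1, followed by Mir15a (1443 ± 309 CPM, SD, n = 2), Mir16-1 (1386 ± 104 CPM), Mir497 (989 ± 0.628 CPM), Mir16-2 (272 ± 41.6 CPM) and Mir34a (200.4 ± 11.0 CPM). Of the 8 tested, Mir195a, Mir16-1 and Mir16-2 were higher in replicate 2, Mir15a was lower and 4 did not pass. Over all 311 tested genes 40.5% passed. Copies among the 10 listed genes were not examined, so their values may leave out shared reads.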

How the data were processed

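The authors deposited a table of unnormalized read counts for each library, on mm10 with GENCODE M21, per the texts deposited beside them. Which aligner and counter were used, and how many mismatches they allowed, is not given in the sources used here. Of the 3 unnamed count columns, the second was read as the gene's own strand because its total over genes was the largest. Reads in no gene (unmapped, multi-mapping, no feature) stayed out of totals. The assembly is that of C57BL/6J. Reads from CAST alleles were not analysed separately here.

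All 2202 identifiers matched GENCODE M21, which gave symbols and 1-based coordinates. The 9 members and the 6 X-linked genes matched RefSeq (GRCm38.p6). Mir497a is listed as Mir497. Counts hold both arms of a hairpin. CPM is counts divided by the total over gene rows, times 1000000.

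The 311 genes with a summed count of 10 or more were tested by the exact conditional binomial test, with Benjamini-Hochberg adjustment over all of them at 0.05. Fold values are ratios of CPM, and log2 ratios add a prior count of 0.5. Intervals are exact (Clopper-Pearson, 95%) and cover counting error alone, because reads copied by PCR are not independent molecules. edgeR's quasi-likelihood test needs replicates within groups and was not used. The binomial step was tested on data simulated with counting error alone, which does not show how it behaves where libraries differ beyond that. Members, lists and the rule for named genes were chosen with earlier results of these data known. Named genes are the members, the X-linked genes, detected genes of the seed and cell cycle lists (up to 6 of each) and the 3 genes nearest in level to the highest gene of each cluster. Mir206, Mir126a, Mir1a-1, Mir133a-1, Mir133a-2 and Mir133b of the marker lists, Mir378a, Mir367 and Mir6383 are outside the rule and were named with their values known. The test ran in scipy 1.17.1 (Python 3.11.15, pandas 2.3.3, numpy 2.4.6) and scaling in edgeR 4.0.16 and DESeq2 1.42.0 (R 4.3.3). Figures were drawn with matplotlib 3.10.9.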

Additional observations from a re-analysis of the deposited data

How the results depend on the processing

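The mean sums of miR-17-92 (2960 CPM) and miR-106b-25 (2321 CPM) moved with the total. They were 4228 and 3315 CPM with unstranded counts, 3541 and 2780 CPM without Mir378a in the total, and 494 and 388 per 1000000 of all reads. Their ratio cannot change under these settings, since the total cancels and no member had opposite-strand counts, so they do not test it. With 2 libraries, leaving 1 out always stays within the SD (1.23 to 1.32), so that is no test either. Per base of mature sequence, chosen after seeing the data, the ratio was 1.27, and it was 0.997 without Mir92-1. Of 7 tested members, 4 passed with unstranded counts (39.9% of all tested genes), a total over Mir symbols (41.1%), a minimum of 50 counts (51.8%) and a prior count of 2 (40.5%), as did 4 of 9 with no filter (21.9%). There were 5 of 7 with TMM and with DESeq2 size factors (38.9% of all tested genes each) and without Mir378a (39.7%), where Mir20a joined, and 0 with edgeR's exact test (0.643%), which counts the spread between libraries as noise. No tested member's ratio changed sign under any of these. No paired analysis was possible because there is 1 group. Depth limits Mir19a and Mir19b-1, which had at most 5 counts in a library, and for Mir19b-1 and Mir92-1 uncounted shared reads add a limit of unknown size.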

Other observations

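Set side by side by seed, the ratios of replicate 2 over replicate 1 showed a pattern that was noticed after the values were seen and was not tested. All 6 genes with the seed AUUGCAC that had at least 10 counts lay above 1, from 1.11-fold to 1.94-fold. Among them Mir92-1 alone passed the exact binomial test, and the intervals of the others spanned 1. Mir92-2, whose mature sequence is the same, had the highest value (1.94-fold, 95% interval 0.957 to 4.43). Mir92-1 and Mir92-2 both leave out the reads they share, so they are not separate observations. Mir363 was 1.12-fold by CPM, but its log2 ratio with the prior count was 0.0058. Counts in replicate 2 and replicate 1 were low for Mir92-2 (62 and 9), Mir32 (48 and 9), Mir92b (17 and 3) and Mir363 (12 and 3). Of the 6 such genes with the seed AAAGUGC, 5 lay below 1, of which Mir17 and Mir106b passed and the intervals of Mir20a, Mir93 and Mir106a spanned 1. Mir20b, with 10 counts in replicate 2 and 2 in replicate 1, was the exception (1.41-fold, 0.30 to 13.2). Mir106a, on the other side, had only 14 and 5 counts in the same order. Of all 311 tested genes 54.7% lay above 1 and 45.3% below.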
